A study of Mus musculus with 2 samples.

Results

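The S, G2 and M phase genes described here are 40 named genes whose transcripts accumulate while a cell copies its DNA and divides. They were chosen by symbol, and all 40 were found among the 27998 features of both count matrices. The S list holds 15 genes: the helicase subunits Mcm2, Mcm3, Mcm4, Mcm5, Mcm6 and Mcm7, the loading factors Cdc6 and Cdt1, the helicase partner Gins2, the polymerase clamp Pcna, the nucleotide enzymes Rrm1, Rrm2 and Tyms, the methylation maintenance factor Uhrf1 and the histone mRNA binding protein Slbp. The G2/M list holds 25 genes. Of these, 22 were summed as the mitotic genes: Top2a, Ube2c, Birc5, Cdk1, Cdca8, Cdca3, Cdc20, Ccnb1, Ccnb2, Ccna2, Mki67, Spc24, Cenpa, Cenpe, Cenpf, Aurka, Aurkb, Plk1, Bub1, Bub1b, Tpx2 and Nusap1. Hmgb2, Tubb5 and Stmn1, which nondividing cells also express, were kept out of that sum.

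The study compared the cornea and limbal rim of 1 wild-type female mouse with those of 1 female littermate heterozygous for Becn1 (beclin1 +/-), a gene of autophagosome formation. Both were 28 days old, the labelled strain background was C57BL/6, and neither received a treatment that the labels name. Single cells were profiled on the 10x Genomics platform after most of the conjunctiva had been dissected away. Each genotype had 1 library from 1 animal, so genotype, animal and preparation cannot be told apart, no test was possible, and every interval below is a 95% interval of counting error only.

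Entry into S phase is driven by E2F transcription factors, which switch on the genes for DNA replication once the retinoblastoma protein is inactivated by G1 cyclin kinases. Genes of G2 and mitosis are switched on later through the MuvB complex with B-Myb and FoxM1, which contacts CHR elements (cell cycle genes homology region), often together with NF-Y bound to CCAAT boxes. In the cornea, division is known from the basal layer and from the limbus at its edge, where slowly cycling stem cells lie beside early transit amplifying cells, and suprabasal wing cells are described as having left the cycle.

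Promoters of the lists differed in these elements. RefSeq promoter windows of 300 bases (250 before to 50 after the start site, GRCm38.p6, the assembly of mm10) were found for 13 of the 15 S genes and 20 of the 25 G2/M genes. An exact E2F-type match on either strand (TTTCGCGC, TTTGGCGC or TTTCCCGC) lay in 7 of the 13 S genes, Cdc6, Cdt1, Mcm3, Mcm5, Mcm6, Mcm7 and Uhrf1, and in 1 of the 20 G2/M genes, Cdk1, against 2.12% of all 27025 genes with a window. The CHR letters TTTGAA lay in 14 of the 20 G2/M genes and in 1 of the 13 S genes, Mcm2, against 20.2% of all genes. CCAAT lay in 18 of the 20 G2/M genes and 10 of the 13 S genes, against 41.1% of all genes, and CHR with CCAAT in 14 of the 20 G2/M genes, against 8.97%. A match is a string of letters, not a measured binding site, and the windows below are shown because they carry the letters in which the lists differ. Mcm6, Mcm5 and Mcm7 are the S genes with an E2F-type match and the highest mean level in basal cells, and Ube2c, Cenpa and Cdc20 the mitotic genes with a CHR match and the highest. Each is printed 5′ to 3′ on the gene's strand, with E2F-type matches in capitals in the Mcm genes and CHR matches in capitals in the mitotic genes.
Mcm6 (chr1:128359656-128359955, minus strand): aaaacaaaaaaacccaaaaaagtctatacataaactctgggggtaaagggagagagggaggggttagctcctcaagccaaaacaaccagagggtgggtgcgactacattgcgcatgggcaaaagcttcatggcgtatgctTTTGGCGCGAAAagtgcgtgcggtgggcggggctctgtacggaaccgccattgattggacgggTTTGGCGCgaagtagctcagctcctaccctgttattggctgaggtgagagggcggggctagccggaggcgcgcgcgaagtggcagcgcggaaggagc
Mcm5 (chr8:75109259-75109558, plus strand): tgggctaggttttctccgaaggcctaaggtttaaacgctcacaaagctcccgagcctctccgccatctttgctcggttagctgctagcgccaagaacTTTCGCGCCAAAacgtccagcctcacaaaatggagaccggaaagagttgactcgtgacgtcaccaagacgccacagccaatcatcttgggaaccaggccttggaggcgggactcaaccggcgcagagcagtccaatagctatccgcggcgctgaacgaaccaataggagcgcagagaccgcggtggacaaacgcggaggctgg
Mcm7 (chr5:138171834-138172133, minus strand): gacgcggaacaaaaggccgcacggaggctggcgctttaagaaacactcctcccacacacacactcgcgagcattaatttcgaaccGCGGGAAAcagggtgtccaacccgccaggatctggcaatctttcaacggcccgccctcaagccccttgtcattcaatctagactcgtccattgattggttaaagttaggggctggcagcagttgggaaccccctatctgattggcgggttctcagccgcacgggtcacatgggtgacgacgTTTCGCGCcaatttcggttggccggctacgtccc
Ube2c (chr2:164769679-164769978, plus strand): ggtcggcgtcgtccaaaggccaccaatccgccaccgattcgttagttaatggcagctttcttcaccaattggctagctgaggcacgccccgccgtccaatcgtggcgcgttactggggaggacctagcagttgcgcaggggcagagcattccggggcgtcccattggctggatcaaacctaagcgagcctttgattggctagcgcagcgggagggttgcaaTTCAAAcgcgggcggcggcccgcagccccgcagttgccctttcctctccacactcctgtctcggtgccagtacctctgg
Cenpa (chr5:30666636-30666935, plus strand): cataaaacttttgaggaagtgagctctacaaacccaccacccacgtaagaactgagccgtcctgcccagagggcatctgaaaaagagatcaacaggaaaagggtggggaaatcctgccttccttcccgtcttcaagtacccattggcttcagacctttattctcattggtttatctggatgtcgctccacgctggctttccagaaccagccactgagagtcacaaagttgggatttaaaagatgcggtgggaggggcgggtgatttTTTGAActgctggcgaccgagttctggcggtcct
Cdc20 (chr4:118437294-118437593, minus strand): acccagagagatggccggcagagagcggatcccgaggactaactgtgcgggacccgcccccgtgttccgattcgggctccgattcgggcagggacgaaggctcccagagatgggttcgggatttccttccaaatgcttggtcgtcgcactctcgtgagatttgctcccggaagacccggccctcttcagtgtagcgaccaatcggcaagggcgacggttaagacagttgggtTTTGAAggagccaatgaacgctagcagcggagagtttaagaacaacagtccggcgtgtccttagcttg
In Mcm6 and Mcm5 matches on opposite strands overlap, so that the capitals form a longer run. Counted from 1 at the window's 5′ end, the CHR letters begin at position 222 in Ube2c and at position 233 in Cdc20, upstream of the start site, and at position 267 in Cenpa, downstream of it.

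After doublet removal 2462 wild-type and 4942 heterozygote cells remained, with medians of 16884 and 11334 UMIs (transcript molecules counted), and 15 barcodes occurred in both libraries. Cells were sorted into 5 classes by their own CPM of marker genes (UMIs of a gene per 1000000 UMIs of the cell or, for summed levels, of the class): limbal (Gpha2 of at least 500 and Krt14 of at least 2000), basal (Krt14 of at least 2000 and Krt12 of at least 8000, not limbal), wing (Krt12 of at least 20000 and Krt14 below 2000), conjunctival (Krt4 of at least 2000 and Krt12 below 8000, not limbal) and stromal (Dcn of at least 5000). They held 230, 809, 520, 56 and 551 wild-type cells and 364, 1441, 977, 96 and 1322 heterozygote cells, and 12% and 15% of cells lay in none. Median depth was unequal: 14526 and 10251 UMIs in limbal, 17753 and 12053 in basal, 23123 and 15471 in wing, 30837 and 16994 in conjunctival and 11643 and 8161 in stromal cells. Between limbal and basal cells, markers that the gates did not use mostly followed the labels, with Ifitm3 at 1250 and 1475 CPM in limbal against 323 and 406 CPM in basal cells and Lum at 4961 and 4999 CPM in stromal cells. Lrig1 did not, at 10.3 and 14.3 CPM in limbal against 17.7 and 14.4 CPM in basal cells. Across all classes the limbal list was not specific: its 5 genes summed to 8846 and 7876 CPM in limbal but 20594 and 24439 CPM in conjunctival cells, most of it Krt15, and to 5568 and 5941 CPM in stromal cells. Corneal endothelial Col8a2 reached 209.6 and 191 CPM in the stromal class, which was therefore not purely stromal. Of the 4 immune markers only Ptprc was at 0 there in both libraries, and together they stood at 88.8 and 35.9 CPM against 1.97 and 7.06 CPM in basal cells, while the 3 vascular markers stood at 31.9 and 32.8 CPM. In each pair of values the wild-type library comes first.

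Mitotic transcripts were concentrated in a minority of basal cells. Every cell was thinned to 5000 UMIs, and a cell with at least 10 UMIs over the 22 mitotic genes was called M-high, a range of a score rather than a cell type. In the basal class 114 of 809 wild-type cells were M-high, or 14.1% (exact binomial interval 11.8 to 16.7), and 207 of 1441 heterozygote cells, or 14.4% (12.6 to 16.3). The limbal class had fewer, 13 of 230 cells or 5.65% (3.04 to 9.47) and 27 of 364 or 7.42% (4.94 to 10.6), and the intervals of the 2 classes did not overlap in either library. Wing cells had 3.27% (1.92 to 5.18) and 2.66% (1.75 to 3.88). Conjunctival cells had 1 of 56 and 0 of 96, which allows up to 3.12%, and stromal cells 0 of 551, which allows up to 0.544%, and 2 of 1322. In limbal, basal and wing cells the intervals of the 2 libraries overlapped.

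**Figure D1:**
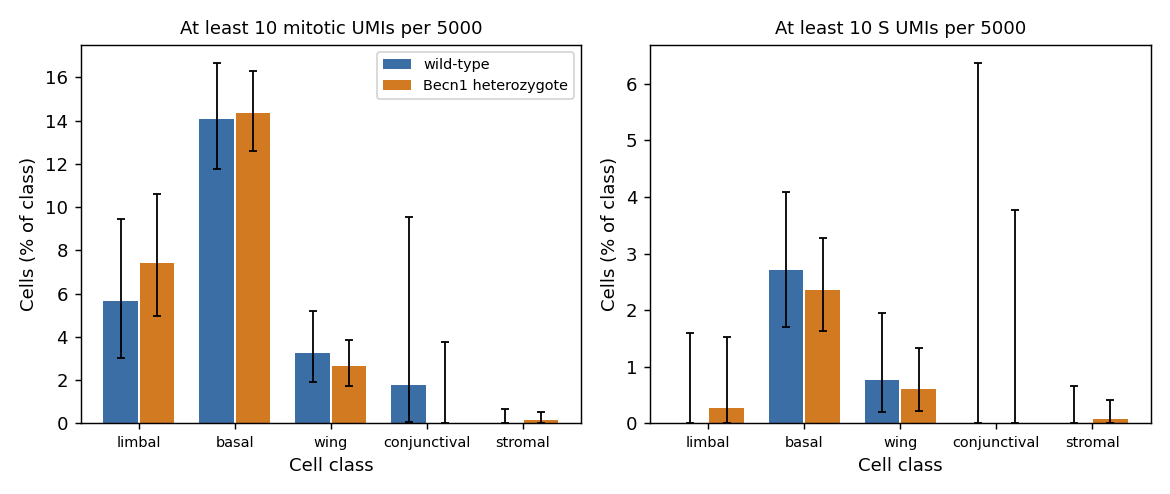
Share of cells (%, bars) with at least 10 UMIs over the 22 mitotic genes (left) or the 15 S genes (right) per 5000 UMIs, by class and library, with exact binomial 95% intervals of counting error. The basal class stands highest in both panels, at 14.1% and 14.4% on the left and 2.72% and 2.36% on the right, and the 2 panels have different vertical scales.

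In the basal class the M-high cells held 79.8% and 77.3% of the thinned mitotic UMIs, the measure that chose them, and 31.1% and 27.1% of the S UMIs, which did not. Of the basal cells outside M-high, 36 wild-type and 92 heterozygote cells had 5 to 9 mitotic UMIs and lay just under the cut, while 71 and 139 had 10 to 19 and lay just above it. Basal M-high cells were also deeper, with medians of 22849.5 against 17039 UMIs and 16246 against 11595 UMIs before thinning.

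S-high cells, with at least 10 UMIs over the 15 S genes, were rarer. They made up 22 of 809 basal cells or 2.72% (1.71 to 4.09), and 34 of 1441 or 2.36% (1.64 to 3.28) among heterozygote cells. Of these, 10 and 13 were M-high as well, and 12 and 21 were S-high only. Limbal cells had 0 of 230, which allows up to 1.30%, and 1 of 364, while wing cells had 4 of 520 and 6 of 977. The 15 S genes were also less abundant, and their basal level together was 367 and 316 CPM against 761 and 800 CPM for the 22 mitotic genes.

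**Figure D2:**
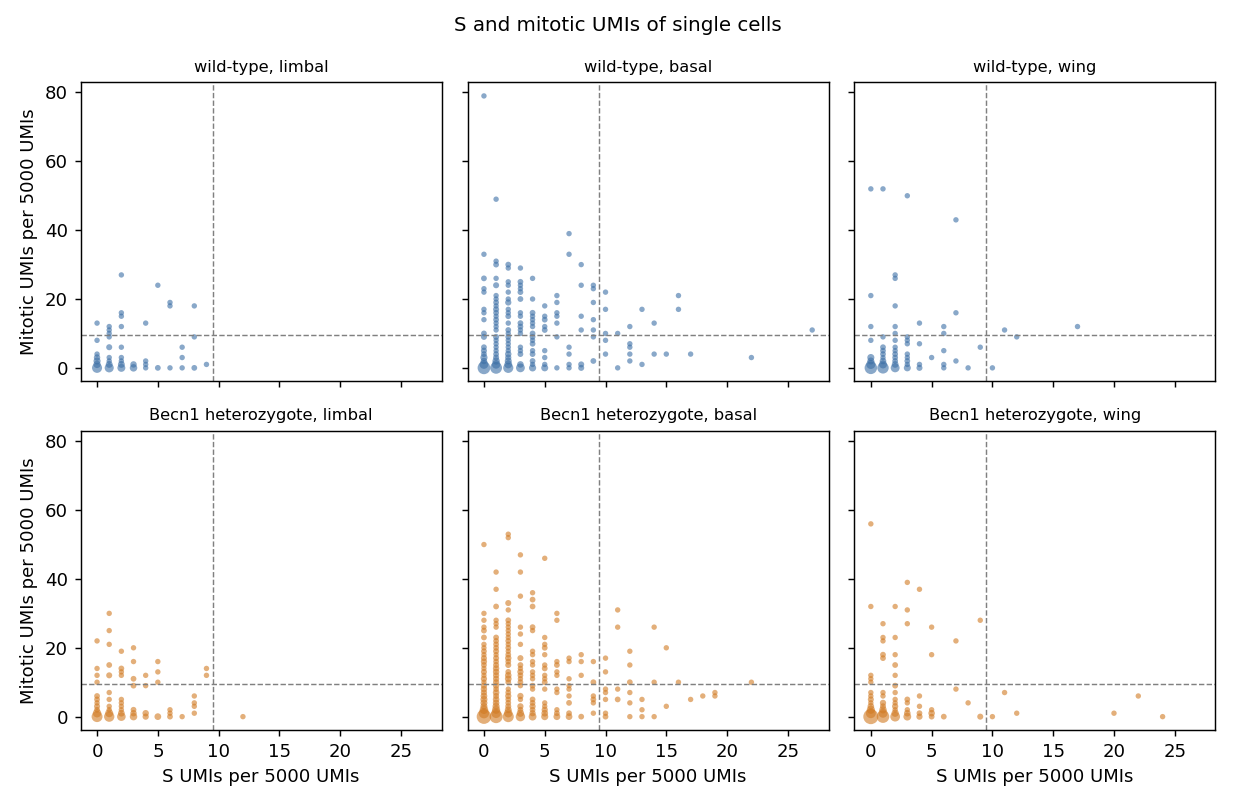
Each point is a combination of S UMIs (horizontal) and mitotic UMIs (vertical) per 5000 UMIs found in cells of a class, its area growing with the number of cells, and dashed lines mark the cut of 10. Most cells lie near 0 on both axes, cells with many mitotic UMIs mostly have few S UMIs, and 10 wild-type and 13 heterozygote basal cells lie beyond both lines.

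The order of the genes between S and mitosis was read from the company each transcript kept. For every UMI of a gene, the share of S UMIs among the other S and mitotic UMIs of the same cell was averaged, over about 215 wild-type and 382 heterozygote cells with at least 10 such other UMIs, the gene itself being left out. A gene with this S position near 0 occurred in purely mitotic cells and one at a higher value beside S transcripts. With 39 of the 40 genes at 20 or more UMIs in both libraries, Pearson's r between the libraries was 0.94 and Spearman's rho 0.94 across genes, which are not independent replicates. Within the G2/M list rho was 0.81 over 25 genes and within the S list 0.75 over 14, so the order held inside each list and not only between them.

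At the mitotic end stood the genes below, placed by co-occurring transcripts and not by when in division each acts. Cenpa, the centromeric histone variant that is loaded around mitosis, had the lowest S position at 12.5% and 12.1%. Ccnb2, a B-type cyclin of the mitotic kinase, stood at 14.4% and 13.3%. Cdc20, the activator of the anaphase-promoting complex, stood at 15.3% and 12.5%, and Ube2c, the ubiquitin-conjugating enzyme of that complex, at 15.4% and 13.4%. Aurka, a spindle pole kinase, Ccnb1, the other B-type cyclin, Cenpf, a kinetochore protein, Nusap1, a spindle microtubule protein, and Plk1, a mitotic kinase, lay between 12.5% and 17.2% in both libraries.

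A middle group of G2/M genes lay nearer to S. Top2a, the topoisomerase that disentangles replicated chromosomes, had an S position of 24.9% and 24.2%. Mki67, the proliferation antigen of the perichromosomal layer, stood at 26.6% and 20.5%, and Spc24, a subunit of the Ndc80 kinetochore complex, at 27.7% and 22.4%. Cdk1, the mitotic kinase, stood at 23.2% and 21.1%, and Aurkb and Birc5, both of the chromosomal passenger complex, at 23.2% and 23.9% and at 25.1% and 19.7%. Of the 25 G2/M genes, 22 had a lower S position in the heterozygote library, against 5 of 14 S genes. Within a library all genes were scored in largely the same cells, so they are not independent counts. Over 22 other mitosis genes the median was lower too, at 21.3% and 18.7%. Over 9 other replication genes it was 41.6% and 41.5%. Basal M-high cells averaged 3.93 and 2.99 S UMIs after thinning. Whether the lower position is particular to the G2/M list was not tested.

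The S list was ordered as well. Tyms, which makes thymidylate, stood nearest to mitosis at 29.5% and 30.2%, followed by the ribonucleotide reductase subunits Rrm1 at 32.0% and 32.1% and Rrm2 at 33.9% and 35.7%. Slbp and Pcna lay at 35.5% and 36.4% and at 37.4% and 35.8%. The helicase subunit Mcm7 stood at 46.2% and 47.3%, Mcm6 at 41.6% and 53.2% and Mcm2 at 45.8% and 56.1%, each from 33 to 72 UMIs a library. The other subunits lay nearer to Pcna, with Mcm5 at 44.6% and 41.8%, Mcm4 at 39.9% and 43.8% and Mcm3 at 40.3% and 38.7%. Cdt1 stood at 41.5% and 41.1%. Gins2, at 38.2% and 49.9%, and Uhrf1, at 43.3% and 36.3%, changed places between the libraries, so the order at the S end was less settled. The lists did not overlap in the heterozygote library, and in the wild-type library 1 G2/M gene, the checkpoint kinase Bub1b at 31.7% from 23 UMIs, stood above Tyms. Cdc6 had 6 UMIs in each library and was not placed.

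**Figure D3:**
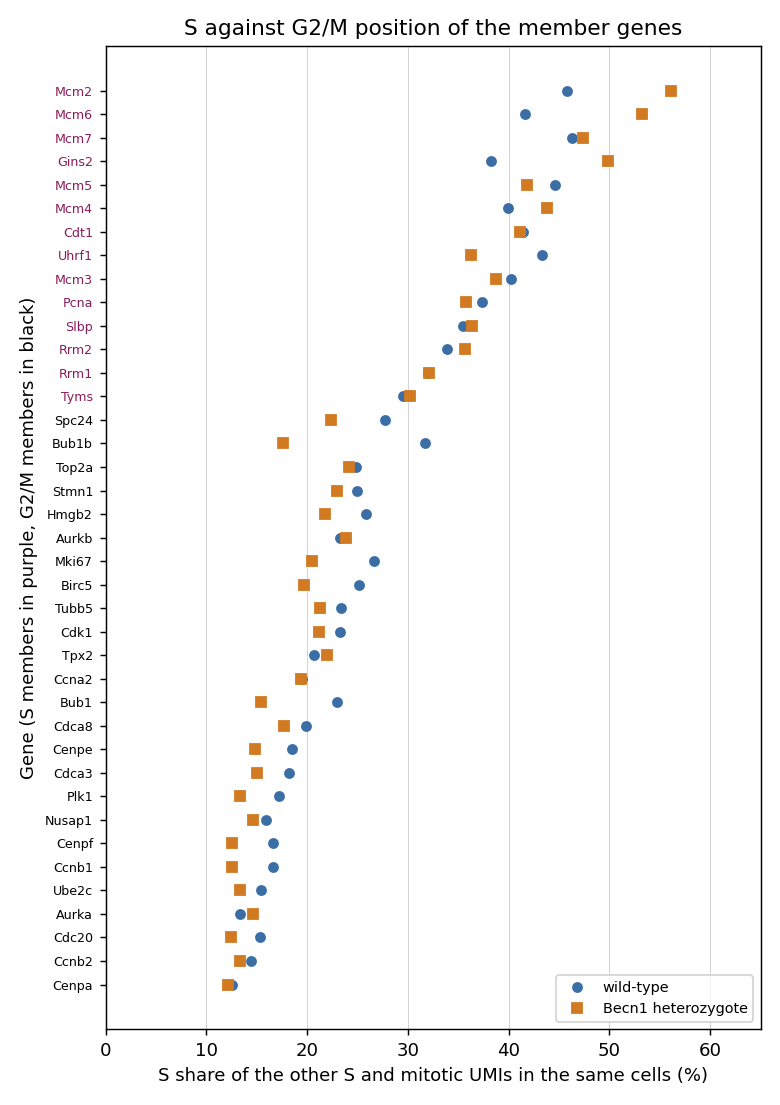
S position of 39 genes (share of S UMIs among the other S and mitotic UMIs of the same cells, %), for the wild-type (circles) and heterozygote library (squares), sorted by the mean of the 2. The S genes (purple names) lie at 29.5% and above and the mitotic end is held by Cenpa at 12.5% and 12.1%.

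Genes outside the 2 lists took matching places. Cdc25b, a phosphatase that activates the mitotic kinase, had an S position of 13.6% and 12.2%, and the cytokinesis gene Racgap1 of 18.1% and 15.2%. The chromatin assembly gene Chaf1a stood at 49.9% and 44.8%, the G1/S cyclin gene Ccne1 at 44.1% and 52.4%, and thymidine kinase Tk1, at 35.8% and 33.2%, near Rrm2. Over the 22 other mitosis genes with enough UMIs the median was 21.3% and 18.7%, and over 9 other replication genes 41.6% and 41.5%, beside 19% and 15.2% for the mitotic genes and 40.1% and 39.9% for the S genes.

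M-high basal cells were then set against the other basal cells. The mitotic genes chose these cells, so their higher level there is no finding, whereas the S genes were not used. Of 26 genes that were measured, meaning a mean of at least 10 CPM over all cells, 7 belong to the S list, and 4 of these were at least 1.5 times higher in M-high cells in both libraries, where 6.49% of all 6544 measured genes were. Rrm2 was higher by log2 2.31 (2.09 to 2.53) and 2.15 (1.92 to 2.38), Tyms by 2.32 (2.1 to 2.54) and 1.96 (1.75 to 2.16), and Rrm1 by 2.13 (1.85 to 2.42) and 2.25 (1.99 to 2.51). Pcna differed less, at 0.89 (0.62 to 1.14) and 0.75 (0.48 to 1.01). Gins2 had 0.07 (-0.38 to 0.48) and -0.30 (-0.73 to 0.08) and Mcm6 0.28 (-0.16 to 0.68) and -0.15 (-0.58 to 0.24), intervals that included 0, while Slbp had 0.61 and 0.50. The other helicase subunits lay below the measured minimum. Among them Mcm5 had ratios of 1.29 (0.92 to 1.65) and 0.89 (0.51 to 1.25). Mcm7 had 1.45 (1.05 to 1.83) and 0.45 (0.03 to 0.83) and Mcm3 1.18 (0.77 to 1.57) and 0.65 (0.24 to 1.03). Mcm4 had 21.1 and 13.3 CPM in M-high basal cells and Mcm2 17.1 and 13.3 CPM. For Mcm2 the wild-type value lay above its level over all basal cells, given below, and the heterozygote value close to it. Uhrf1, also below the measured minimum, had 1.43 and 1.65 and Cdt1 1.17 and 1.06. The 3 nucleotide enzymes thus had the largest ratios among the measured S genes, and the helicase subunits differed among themselves.

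In the opposite direction, basal cells that were S-high only (12 and 21 cells) were set against cells high in neither list. Here the S genes chose the cells, and cells with 10 or more mitotic UMIs were left out, which limits how high the G2/M genes could be. Such cells were left out of the comparison cells too. They held 79.8% and 77.3% of the thinned basal mitotic UMIs, so the level compared against was also lowered. Against that level 14 of 19 measured G2/M genes were at least 1.5 times higher in both libraries, where 16% of all measured genes were. None was lower, where 5.29% were. Spc24 was higher by log2 3.64 (2.99 to 4.21) and 3.52 (2.89 to 4.06), Top2a by 3.02 (2.25 to 3.65) and 3.85 (3.27 to 4.36), and Mki67 by 3.15 (2.34 to 3.82) and 2.71 (1.66 to 3.50). Ube2c differed by 1.32 (0.38 to 2.04) and 1.05 (0.12 to 1.76). Cenpa, at -0.44 (-2.95 to 0.90) and -0.65 (-3.15 to 0.69), and Cenpf, at -0.08 (-3.46 to 1.48) and 0.41 (-1.65 to 1.62), had intervals that included 0, and those of Cenpf were wide enough to hold the ratios of Ube2c. The ratios did not follow the S positions throughout, since Nusap1, at the mitotic end, was higher by 2.70 (1.09 to 3.81) and 3.39 (2.03 to 4.39) and Cdc20 by 1.56 (0.33 to 2.44) and 1.53 (0.22 to 2.46).

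Other cell cycle genes divided similarly. In M-high basal cells 4 of 4 measured replication genes and 10 of 11 mitosis genes were at least 1.5 times higher in both libraries. Of all measured genes 6.49% were. Prc1, a midzone microtubule bundler, stood at log2 3.66 and 4.14 and Tk1 at 2.84 and 2.55. The exception was securin, Pttg1, at 0.50 (0.24 to 0.74) and 0.45 (0.23 to 0.66). Of 5 measured G1 genes and regulators, none was higher, beside the same 6.49% of all. The D-type cyclin gene Ccnd2 was lower, at log2 -0.65 (-0.87 to -0.43) and -0.91 (-1.12 to -0.71), where 3.61% of all measured genes were lower.

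Limbal cells had lower mitotic transcript levels than basal cells, unevenly so between genes. The 22 mitotic genes together stood at 421 and 415 CPM in limbal cells against 761 and 800 CPM in basal cells, and the 15 S genes at 271 and 278 against 367 and 316 CPM. As log2 ratios of limbal over basal these were -0.86 and -0.94 for the mitotic genes and -0.44 and -0.19 for the S genes. Of the 26 measured genes 10 were at least 1.5 times lower in limbal cells in both libraries, 9 of them G2/M genes, where 6.6% of all measured genes were. None was higher, where 7.41% of all were. All 19 measured G2/M genes had ratios below 0 in both libraries, with medians of -0.73 and -0.76 beside 0.00 and 0.01 over all measured genes. Without the minimum level 14 of 40 genes were lower, a count for which the 6.6% of measured genes is no background.

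Ccna2 and Ccnb1 had the largest ratios among the measured genes past 1.5 times. Ccna2, the cyclin of S and G2 (mm10, chromosome 3, 36564865 to 36572150, minus strand), had 7.18 and 6.37 CPM in limbal against 26.1 and 27.4 CPM in basal cells, so the limbal level was about the same low value in both libraries. Its log2 ratio was -1.84 (-2.44 to -1.32) and -2.08 (-2.70 to -1.57). Ccnb1 (chromosome 13, 100778650 to 100786570, minus strand) had 6.70 and 8.34 CPM against 20.7 and 27.5 CPM, with log2 ratios of -1.60 (-2.23 to -1.07) and -1.70 (-2.24 to -1.25). Ube2c (chromosome 2, 164769898 to 164778822, plus strand), whose CHR-bearing window is printed above, had 66.6 and 59.5 CPM against 141 and 149 CPM, a log2 ratio of -1.08 and -1.33. Nusap1 had ratios of -1.20 and -1.15 and Cdk1 of -1.22 and -1.05. The third cyclin gene of the list, Ccnb2, had 23.0 and 18 CPM against 38.6 and 46.4 CPM, with ratios of -0.74 (-1.07 to -0.44) and -1.36 (-1.71 to -1.04).

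The proliferation markers in common use differed less. Mki67 (chromosome 7, 135689784 to 135716361, minus strand) had 18 and 15.8 CPM in limbal against 27.3 and 22 CPM in basal cells, a log2 ratio of -0.60 (-0.98 to -0.25) and -0.47 (-0.86 to -0.12). Top2a (chromosome 11, 98992943 to 99024189, minus strand) had 34.2 and 29.0 against 48.0 and 43.4 CPM, a ratio of -0.48 (-0.75 to -0.23) and -0.58 (-0.86 to -0.32). In the S list the gene past 1.5 times was Rrm2 (chromosome 12, 24708241 to 24714146, plus strand), at 18.4 and 13.8 against 42.5 and 30.5 CPM with ratios of -1.20 and -1.13. Pcna stood at 35.0 and 32.9 against 38.5 and 29.9 CPM, a ratio of -0.14 (-0.41 to 0.12) and 0.14 (-0.13 to 0.40). Mcm2, below the measured minimum, stood at 6.70 and 10.8 against 11.9 and 13.1 CPM.

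Ccna2 and Ccnb1 were lower also among the M-high cells of the 2 classes, 13 and 27 limbal against 114 and 207 basal cells. There Ccna2 had 45.7 and 52.6 CPM in limbal against 124 and 128 CPM in basal cells, a log2 ratio of -1.40 (-2.24 to -0.74) and -1.25 (-1.92 to -0.70). Ccnb1 had a ratio of -1.13 (-1.97 to -0.47) and -1.01 (-1.59 to -0.51) and Ube2c of -0.73 (-0.98 to -0.50) and -0.62 (-0.83 to -0.43). Ccnb2 had -0.18 (-0.62 to 0.21) and -0.79 (-1.24 to -0.40), so that its difference was not detectable in the wild-type cells. Cenpa, at 0.02 (-0.32 to 0.33) and -0.14 (-0.44 to 0.13), Cdc20, at -0.25 (-0.61 to 0.08) and 0.03 (-0.25 to 0.29), and Mki67, at -0.16 (-0.72 to 0.32) and 0.40 (-0.06 to 0.81), had intervals that included 0. These cells were compared after the class ratios had been seen, and the mitotic sum that selected them includes these genes, so the values describe the makeup of that sum. Among other cell cycle genes, Tk1 was lower in limbal cells, at log2 -1.15 and -0.92, and Racgap1 at -0.89 and -1.12, whereas Ccnd2 was higher, at 194 and 251 CPM against 103 and 102 CPM (log2 0.91 and 1.30).

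**Figure D4:**
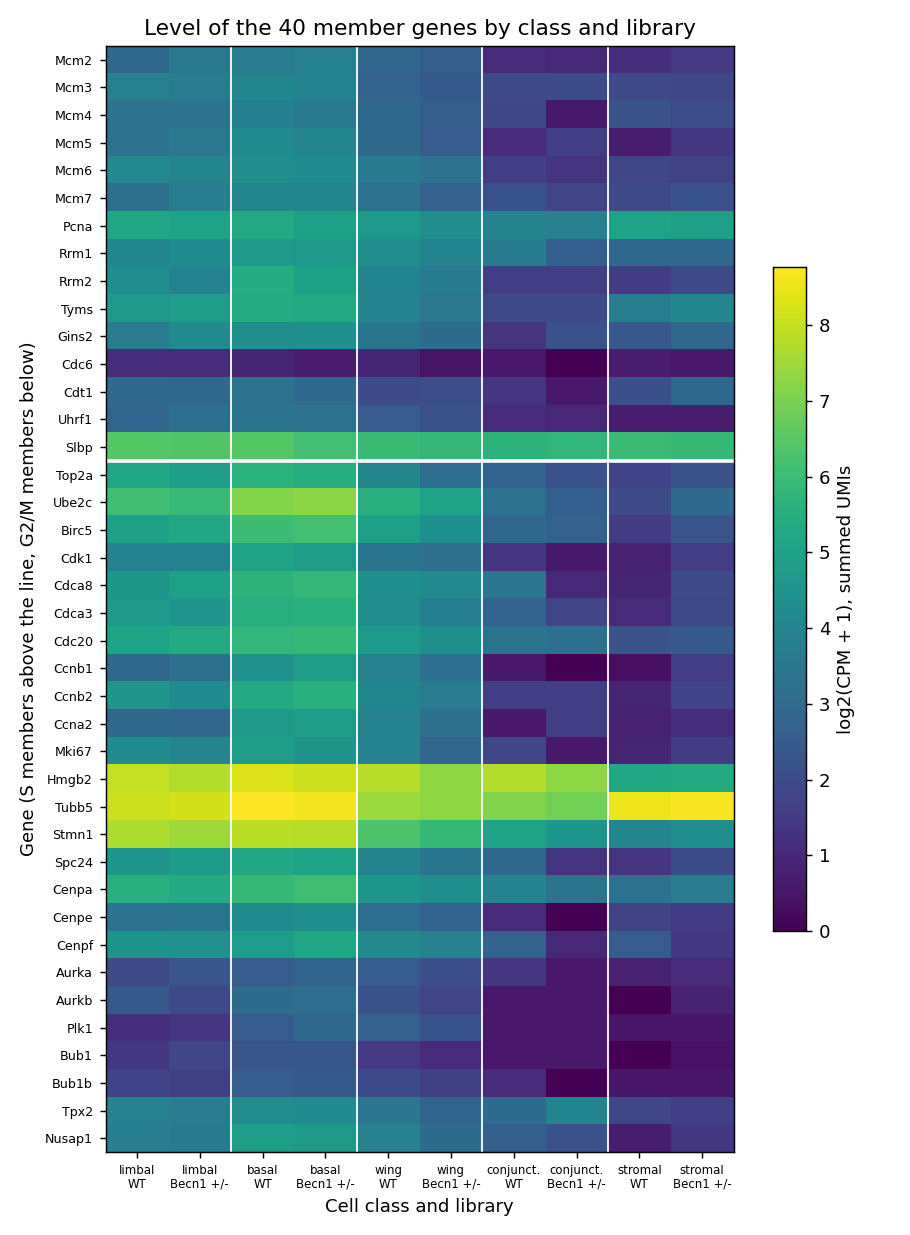
Level of all 40 genes as log2(CPM + 1) of summed UMIs (colour), by class and library, S genes above the white line and G2/M genes below ("conjunct." is the conjunctival class). Mitotic genes such as Ube2c and Ccna2 are brightest in basal cells, Tubb5 is about as bright in stromal as in basal cells, and the values carry no length correction, so colours compare classes within a gene.

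Within cells carrying Krt14, the keratin of basal cells, the M-high share depended on the levels of Gpha2 and Krt12. It was 16.2% and 14.9% of cells without a Gpha2 UMI and 13.2% and 15.1% of cells above 0 but under 500 CPM. Between 500 and 2000 CPM it was 9.30% (12 of 129) and 9.35% (20 of 214), and at 2000 CPM and over 0.990% (1 of 101) and 4.67% (7 of 150). Restricted to Krt12 under 8000 CPM, the share was 12.2% and 13.4% at a Gpha2 of 500 to 2000 CPM and 1.15% (1 of 87) and 4.44% (6 of 135) above that. The cells richest in Gpha2 thus held the fewest M-high cells also among cells low in the differentiation keratin.

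Along Krt12 the share was highest at intermediate levels, 18.9% and 17% between 8000 and 20000 CPM. It was 10.8% and 13.0% below that range, where limbal cells fall, 7.12% and 9.21% between 20000 and 40000 CPM, and 5.88% (2 of 34) and 3.03% (2 of 66) at 40000 CPM and over. The low share below 8000 CPM went with Gpha2. Among cells with Gpha2 above 0 but under 500 CPM, those with Krt12 under 8000 CPM had 18.6% (11 of 59) and 18.2% (18 of 99) M-high cells, against 12.4% and 14.6% of those with more Krt12. Without a Gpha2 UMI they had 3 of 6 and 10 of 31, against 15.7% and 14.2%, and at a Gpha2 of 500 to 2000 CPM the 12.2% and 13.4% given above stood against 0 of 31 and 3 of 87. At like Gpha2 levels below 2000 CPM the share was therefore higher in cells with little Krt12 in both libraries, though several of these bins held few cells. Within both classes M-high cells had less Krt12 than the others. Basal M-high cells had a median Krt12 of 15916 against 20394 CPM and of 15587 against 18988 CPM in the other basal cells. Limbal M-high cells had 851 against 3289 CPM and 1609 against 4459 CPM, with Gpha2 at 1168 against 1776 and 1048 against 1599 CPM.

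**Figure D5:**
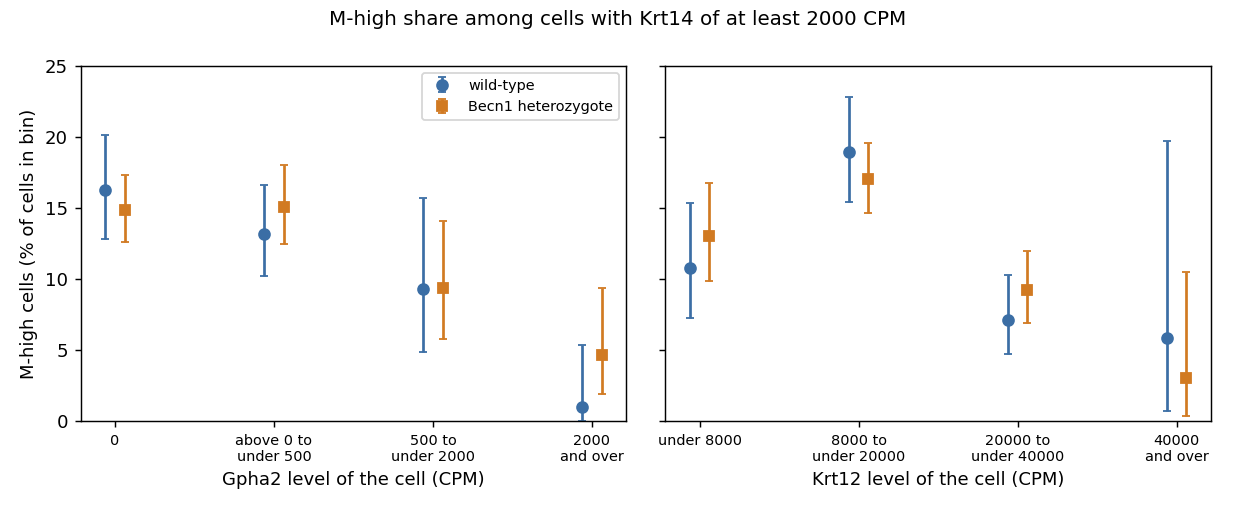
Share of M-high cells (%, with exact binomial 95% intervals) among cells with a Krt14 level of at least 2000 CPM, in bins of the cell's Gpha2 (left) or Krt12 (right). The share is lowest at a Gpha2 of 2000 CPM and over, at 0.990% and 4.67%, and highest at a Krt12 of 8000 to 20000 CPM, at 18.9% and 17%.

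Summed levels of basal markers in M-high and other basal cells were similar for the matrix adhesion genes Col17a1, at log2 -0.01 and 0.06, and Itgb4, at 0.20 and 0.19. The limbal marker Krt15 was lower in M-high cells, at log2 -1.54 and -1.32, as was Cd63 at -1.12 and -0.57. The differentiation genes Clu, at -0.80 and -0.84, and Slurp1, at -0.64 and -0.44, were lower too, whereas Aldh3a1 of the same list had -0.10 and 0.06. Ifitm3 and Lrig1 of the limbal list had ratios of -0.11 and 0.28 and of 0.26 and -0.02.

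Wing cells had lower levels of nearly all of these genes. In both libraries 23 of the 26 measured genes were at least 1.5 times lower than in basal cells, where 12.4% of all measured genes were, and none was higher, where 15.4% were. Without the minimum level 34 of 40 were lower, a count for which the 12.4% of measured genes is no background. Cdk1 had 9.67 and 8.53 CPM against 32.0 and 27.9 CPM in basal cells (log2 -1.72 and -1.70), and Top2a 15.2 and 7.87 against 48.0 and 43.4 CPM (-1.65 and -2.46). Ube2c had 43.9 and 33.1 CPM, a ratio of -1.68 and -2.17, and the tubulin regulator Stmn1 78.6 and 57.6 against 232 and 227 CPM (-1.56 and -1.98). Tyms led the S genes at -1.57 and -1.89, and the chromatin protein gene Hmgb2 had the smallest G2/M ratio, -0.48 and -0.78. The 17 and 26 M-high wing cells held 58.0% and 60.5% of the wing mitotic UMIs, and their median Krt14 was 867 against 414 CPM and 994 against 319 CPM in other wing cells, below the gate of 2000 CPM but above their neighbours.

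Stromal and conjunctival cells had low levels of mitotic transcripts, and in stromal cells Pcna and Slbp stayed close to their basal level. The mitotic sum was 39.2 and 60.0 CPM in stromal and 98.6 and 63.2 CPM in conjunctival cells. In each of these classes 23 of the 26 measured genes were at least 1.5 times lower than in basal cells in both libraries, where 29% of all measured genes were for stromal and 23.3% for conjunctival cells, and none was higher, where 24.7% and 16.7% were. Rrm2 stood at 1.94 and 2.99 CPM in stromal cells, a log2 ratio of -4.40 and -3.33, and Ccna2 at 0.74 and 1.23 CPM (-4.99 and -4.43). Aurkb and Bub1 had no UMI in the wild-type stromal cells. Pcna, however, had 32.6 and 29.7 CPM (-0.24 and -0.01) and Slbp 63.5 and 58.0 CPM (-0.46 and -0.25). In conjunctival cells Pcna was lower, at -1.42 and -1.08, one of 6 among the 7 measured S genes past 1.5 times. In stromal cells Tubb5, a tubulin gene with near-identical relatives, had 374 and 406 CPM against 434 and 391 CPM in basal cells (-0.22 and 0.05). In conjunctival cells Tubb5 was at least 1.5 times lower than in basal cells in both libraries. In conjunctival cells Hmgb2 was the best preserved G2/M gene in the wild-type library, at 216 against 314 CPM (-0.54), and had 153 against 270 CPM in the other (-0.82).

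Between genotypes the basal class showed small differences of opposite sign in the 2 lists. The S sum was lower in the heterozygote library, at log2 -0.21 (-0.26 to -0.16) and the mitotic sum higher by 0.07 (0.04 to 0.10), so that there were 2.08 mitotic UMIs per S UMI in wild-type and 2.53 in heterozygote basal cells. No measured gene differed by 1.5 times in either direction, where 0.688% of all measured genes were lower and 3.74% higher. Rrm2 was lower, at 30.5 against 42.5 CPM (log2 -0.48, -0.63 to -0.32), as were Pcna (-0.37, -0.53 to -0.20) and Slbp (-0.34, -0.45 to -0.23). Ccnb1 was higher, at 27.5 against 20.7 CPM (0.41, 0.22 to 0.61), and so was Cenpf (0.38, 0.21 to 0.55). With cells thinned to equal depth the basal mitotic sum differed by 0.035. With every gate minimum doubled it differed by 0.79, and the wild-type basal M-high share fell to 8.99%. At that setting 12 genes were higher in the heterozygote library, where 5.52% of all were, so the basal comparison rests on where the gate lies. Limbal cells likewise had no gene past 1.5 times, where 2.81% of all were lower and 4.39% higher, with Stmn1 at -0.22 (-0.36 to -0.08) and Hmgb2 at -0.19 (-0.32 to -0.07). The limbal mitotic sum differed by -0.02. Limbal cells outside M-high, which were set apart by that same sum, averaged 0.668 and 0.546 mitotic UMIs per 5000. With the M-high cells left out and no thinning, the limbal sum differed by -0.74 (-0.90 to -0.58), more than the thinned averages did, and why was not tested. At that setting 11 genes were lower, where 3.32% of all were.

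In wing cells the mitotic sum was lower in the heterozygote library, at log2 -0.50 (-0.56 to -0.44), and the S sum was at -0.31 (-0.38 to -0.23). There 7 of the 26 measured genes were at least 1.5 times lower, where 4.22% of all were, and none higher, where 1.18% were. Mki67 had 6.44 against 13.8 CPM (-1.10, -1.44 to -0.77), Top2a 7.87 against 15.2 CPM (-0.95, -1.26 to -0.65) and Nusap1 7.54 against 13.7 CPM (-0.86, -1.19 to -0.55). Ccna2 and Tpx2, a spindle assembly factor, followed at -0.72 and -0.71. Wing cells outside M-high, again set apart by that sum, averaged 0.573 and 0.415 mitotic UMIs per 5000. With the M-high cells left out and no thinning the wing sum differed by -0.70 (-0.78 to -0.61), and 12 genes were lower, where 4.57% of all were. TMM scaling left 3 genes, where 2.12% of all were, and cells thinned to equal depth gave a ratio of the mitotic sum of -0.36. The stromal markers Dcn, Lum, Kera, Col1a1 and Col1a2 together, none of them at 0, summed to 589 CPM in the wing cells of the wild-type library and to 342 CPM in those of the other, and their part in the difference was not tested.

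In stromal cells the mitotic sum was higher in the heterozygote library by log2 0.61 (0.41 to 0.83), and 14 of the 26 measured genes were at least 1.5 times higher, where 4.05% of all were, with Cenpf lower (-1.54, -2.46 to -0.70), where 1.79% of all were. The 2 M-high stromal cells of that library held 195 of its 683 stromal mitotic UMIs. Without them the sum differed by 0.13 (-0.09 to 0.35) and 7 genes were higher, where 3.87% of all were, and with no doublet removed 5 were, where 6.6% of all were. Ccnb1 rested on 23 UMIs against 2 (2.47, 0.74 to 5.89) and Cdca8, of the chromosomal passenger complex, on 35 against 6 (1.69, 0.52 to 3.32). In the 56 and 96 conjunctival cells 11 genes were lower and 3 higher, where 13% and 6.63% of all measured genes were, and the largest ratio, of Cdca8, came from 2 against 19 UMIs (-2.99, -6.42 to -1.23).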

How the data were processed

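The authors deposited raw UMI counts for each gene in each barcode, without normalization. Per the submitters' processing notes, Cell Ranger 2.1.1 and the mm10 build were used. How barcodes were called as cells, and which annotation release was counted, is not given in the sources used here. Scrublet, as in scanpy 1.11.5, scored doublets per library, and 0.8% per 1000 barcodes were removed: 51 (2.03%) and 213 (4.13%), of which 7 and 12 were M-high. Cells thinned to 5000 UMIs gave the shares, and M-high basal cells were compared with all other basal cells. Cells meeting the stromal and an epithelial gate were left out. Within a library the UMIs of a class were pooled, and CPM were taken over that pool. Ratios had 0.5 added to each count. Intervals were exact Poisson, binomial or conditional (Clopper-Pearson), and limits at 0 were 3 counts. They cover counting error, not variation between cells. With 1 library per genotype there was no replicate test, and a shift of 1.5 times served as the call. Genes named with values were Mcm2, Pcna, Mki67, Top2a and, per comparison and list, up to 5 members furthest from 0 that passed it in both libraries (between genotypes, whose interval left out 0), and 3 other cell cycle genes; further genes were chosen after their values were seen. Members and lists were chosen with earlier results of these data known. Positions came from GENCODE M21 (mm10) and promoters from RefSeq. Alternatives covered cuts, gates, doublets, folds, minimum levels, TMM scaling in edgeR 4.0.16, thinning and its seed; leaving out M-high cells was added after seeing the data. Other tools were Python 3.11.15, numpy 2.4.6, scipy 1.17.1, pandas 2.3.3, R 4.3.3 and matplotlib 3.10.9.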

Additional observations from a re-analysis of the deposited data

Results flagged for a closer look

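The heterozygote over wild-type ratio of the 22 mitotic genes summed had opposite signs between classes of cells of the same 2 animals. As log2 ratios it was 0.071 in basal and 0.61 in stromal cells, but -0.50 in wing and -0.64 in conjunctival cells. These differences between classes were not tested, since each class had 1 library per genotype. The basal value was 0.035 with cells thinned to 5000 UMIs, 0.11 with TMM scaling and 0.79 with doubled gate minimums. The stromal value was 0.13 without the 2 M-high cells of that class. The conjunctival value was -0.30 with no doublet removed and -1.06 when cells that also met another gate were kept.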

How the results depend on the processing

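No paired analysis was possible because each genotype had 1 library. Of the results that answer a comparison, 211 combinations of result and setting kept their value within the spread used here and 75 moved. The lower M-high share of limbal than basal cells kept its direction at cuts of 5, 10 and 20 UMIs. A cut of 5 gave M-high shares of 18.5% and 20.7% in basal and 6.35% and 4.40% in wing cells, and S-high shares of 6.09% and 6.04% in limbal, 8.90% and 8.40% in basal, 2.88% and 2.66% in wing and 0.832% in heterozygote stromal cells. A cut of 20 gave M-high shares of 0.870% and 1.37% in limbal, 5.32% and 4.72% in basal, 1.35% and 1.43% in wing and 0 in wild-type conjunctival cells, and S-high shares of 0.247% and 0.0694% in basal cells and 0 in wild-type wing, heterozygote limbal and heterozygote stromal cells. Doubled gate minimums gave M-high shares of 8.99% in wild-type basal and 1.85% and 0.968% in wing cells, and S-high shares of 1.63% in heterozygote basal cells, 0 in wing cells of both libraries and 0 in heterozygote stromal cells. Between genotypes they gave 2 genes lower (4.77%) and 3 higher (5.03%) in limbal cells and 12 higher (5.52%) in basal cells. In wing cells they gave 12 lower (3.93%) and 2 higher (3.33%). Conjunctival cells had 4 lower (12.2%), and stromal cells 3 lower (1.88%) and 8 higher (3.50%). In brackets, here and below in this paragraph, is the share of all genes compared at that setting that passed. A minimum of 50 CPM, which leaves few of the genes, gave 1 gene lower in limbal than basal cells (6.99%). It gave 3 each lower in wing (14.0%), conjunctival (22.6%) and stromal (36.9%) than basal cells. Between genotypes it gave 0 lower (2.02%) in wing cells and 1 lower (6.73%) and 0 higher (3.60%) in conjunctival cells. In stromal cells it gave 0 lower (0.484%) and 1 higher (4.62%). A fold of 2 gave 6 lower (2.29%) in limbal than basal cells. Between genotypes it gave 1 lower (1.15%) in wing and 7 higher (1.60%) in stromal cells. No minimum gave 36 lower (14.9%) in conjunctival and 35 (17.6%) in stromal than basal cells. Between genotypes it gave 1 lower (11.8%) and 2 higher (12.7%) in limbal cells. It gave 12 lower (17.7%) in wing and 17 lower (16.9%) in conjunctival cells. Thinned sums gave, between genotypes, 2 lower (8.05%) and 1 higher (7.81%) in limbal cells and 6 higher (15.8%) in conjunctival cells. In stromal cells they gave 2 lower (3.38%) and 8 higher (5.12%). They reversed 3 ratios, to 0.26 for Rpa2 in basal, 0.81 for Spc24 in conjunctival and 0.080 for the mitotic sum in limbal cells; the cause was not tested. TMM scaling gave 3 lower (2.12%) in wing cells. With no doublet removed there were 6 lower (11.8%) and 5 higher (6.36%) in conjunctival and 5 higher (6.60%) in stromal cells. Without M-high cells, which the mitotic sum itself sets apart, there were 11 lower (3.32%) in limbal and 12 lower (4.57%) in wing cells. Stromal cells then had 2 lower (1.80%) and 7 higher (3.87%). Median S positions were 33.6% and 33.3% for S and 17.4% and 14.6% for mitotic genes with at least 20 other UMIs, and another thinning seed gave 41.8% for wild-type S and 15.5% for heterozygote mitotic genes. Cells of 5000 thinned UMIs carry few UMIs of most S genes, so depth limits the S positions of single genes.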

Other observations

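The G1 cyclins, which act before the S genes, differed among themselves across the classes. Ccnd1 stood at 146 and 141 CPM in limbal, 132 and 132 CPM in basal and 119 and 87.8 CPM in wing cells, but at 8.79 and 14.5 CPM in stromal cells. Ccnd2 showed the opposite contrast, with 213 and 213 CPM in stromal and 194 and 251 CPM in limbal cells against 103 and 102 CPM in basal and 51.9 and 46.9 CPM in wing cells. Ccnd3 was higher in stromal than basal cells as well, at 77.9 and 70.5 CPM against 46.1 and 35.8 CPM. Of the 5 measured G1 genes and regulators, Ccnd2 and Ccnd3 were at least 1.5 times higher and Ccnd1 and Cdk6 at least 1.5 times lower in stromal than basal cells in both libraries, where 24.7% of all measured genes were higher and 29% lower. In wing cells Ccnd2, Ccnd3 and the kinase gene Cdk4 were lower, Cdk4 at log2 -0.80 and -1.05, where 12.4% of all measured genes were lower.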
